A study of Mus musculus with 12 samples.

Results

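The genes described here are the clustered homeobox genes, or Hox genes. They were chosen by name: every gene with a probe set whose only symbol was Hoxa, Hoxb, Hoxc or Hoxd followed by a paralog number. They numbered 33 of the 18193 genes measured, and the RefSeq gene table used for names lists 39 mouse Hox genes. The remaining ones are not analysed here. The members comprised 9 Hoxa genes on chromosome 6, 9 Hoxb genes on chromosome 11, 7 Hoxc genes on chromosome 15 and 8 Hoxd genes on chromosome 2. By paralog number, 7 were anterior (1 to 3), 12 central (4 to 8) and 14 posterior (9 to 13). Where a gene had more than 1 probe set, which held for 11 members, the brightest set, by its mean over the 12 arrays, stood for it.

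The arrays came from mouse embryos at embryonic day 8.0, of a line of mixed C57BL/6 and FVB background, in 4 groups of 3 arrays. The groups were EYFP positive cells from ER71 mutant embryos, EYFP negative cells from ER71 mutant embryos, EYFP positive cells from ER71 wildtype embryos and EYFP negative cells from ER71 wildtype embryos. EYFP is a yellow fluorescent protein, and ER71 is another name of Etv2, a gene for an ETS transcription factor that the first blood and endothelial cells need. Embryos were digested with trypsin, cells were sorted on a flow cytometer, and RNA went through 2 rounds of amplification before it was labelled with biotin. The labels do not say what drives EYFP, which part of ER71 is altered in the mutant, or whether arrays stand for separate embryos or pools. P-values therefore measure the spread between these arrays, part of which may be technical.

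Hox proteins are homeodomain transcription factors that give cells their position along the body axis. Within each cluster the genes lie in the order of their paralog numbers: low-numbered genes start earlier and reach further towards the head, and high-numbered genes start later and stay nearer the tail. At the stage studied they are read in the neural plate and in paraxial and lateral mesoderm, and some high-numbered genes are known in the allantois, the bud of extraembryonic mesoderm that forms the umbilical vessels.

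All values are log2 array intensities normalised by the authors with RMA, so a difference of 1 is a doubling, and levels are compared between groups for 1 gene but not between genes. Array medians lay between 6.98 and 7.06 and the 25th percentiles between 5.62 and 5.69, and the number of arrays limits the precision. Etv2 read 10.70 to 11.36 on the wild-type positive arrays and 7.24 to 7.85 on the other arrays, and the labels do not say whether the probed part of the gene lies outside the mutation. The endothelial marker Cdh5 read 4.86 to 5.09 in mutant positive cells, against 4.81 to 4.93 in mutant negative cells. It read 10.04 to 10.35 in wild-type positive cells, against 4.71 to 4.88 in wild-type negative cells. Other endothelial markers did differ in the mutant sort. Kdr read 11.48 to 12.17 in mutant positive and 9.19 to 9.24 in mutant negative cells, and Tek 9.03 to 10.15 against 7.31 to 7.80. Mutant positive array 1 had an Afp value of 11.98, against 5.02 and 4.04 on the other arrays of its group. Both wild-type arrays numbered 1 had a high Eif2s3y value with low Xist, and the counts without these arrays are given with the processing alternatives.

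Most Hox probe sets read above the dim end of the arrays. On all 12 arrays, 19 of the 33 members lay above the array median, and 5 members, Hoxa4, Hoxb7, Hoxb13, Hoxd11 and Hoxd12, lay below the 25th percentile on all 12. Hoxd10 lay below that percentile on 10 arrays and Hoxa13 on 9, and values there carry little information on differences. Among the 7 anterior members the highest group mean was that of the mutant negative cells in 7 and the lowest that of the wild-type positive cells in 6. Among the 14 posterior members the highest mean was that of the mutant positive cells in 8. The heat map of all members shows both tendencies.

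**Figure D1:**
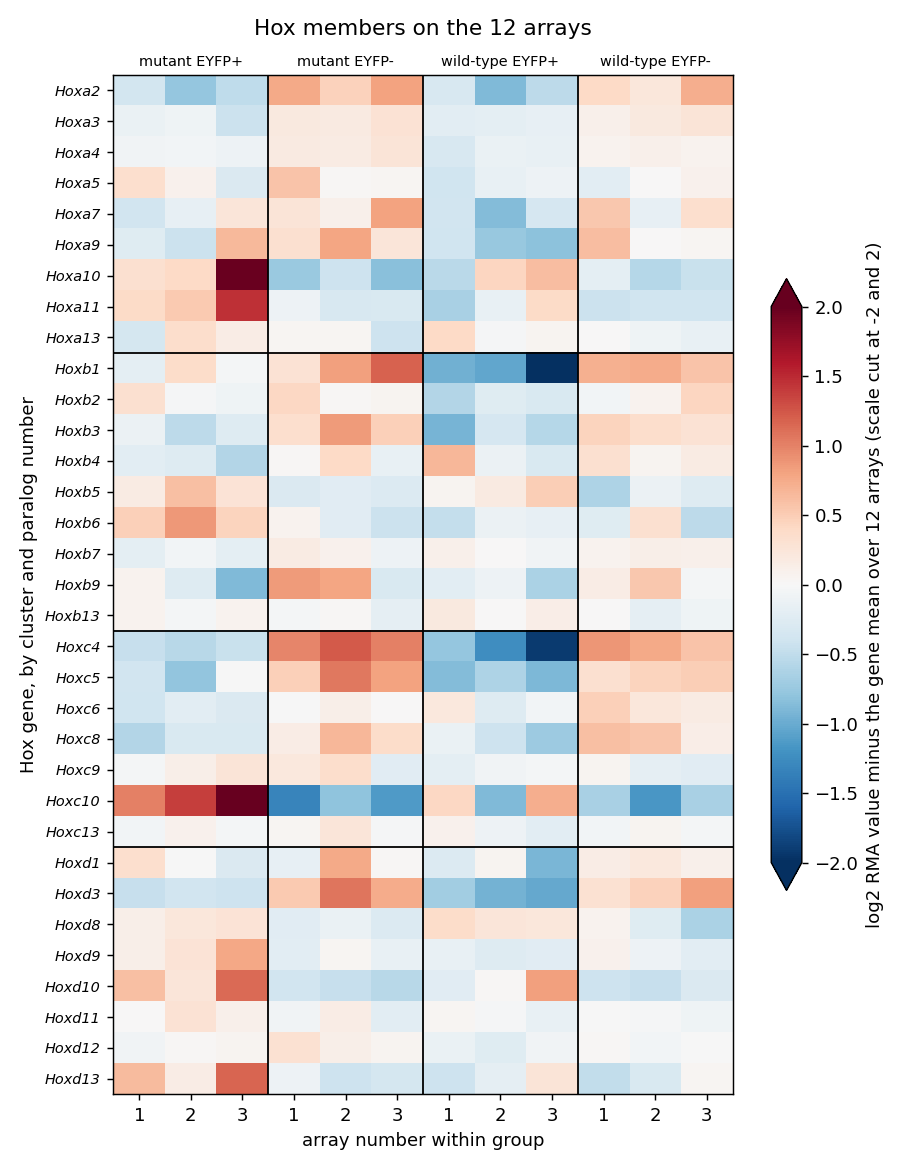
Each row is a Hox gene, ordered by cluster and paralog number, and each column an array; colour is the log2 value minus the gene's mean over the 12 arrays, with the scale ending at -2 and 2. The low-numbered rows of each cluster are mostly blue in wild-type positive cells and red in both negative groups. In mutant positive cells many are blue too, but Hoxb1, Hoxb2 and Hoxd1 are pale or mixed there. Hoxc10 and Hoxa10 are darkest red on mutant positive array 3.

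The first question is how Hox expression in the EYFP positive cells differed from that of the rest of the embryo. In wild-type embryos 10 of 33 members (30.3%) differed between positive and negative cells at a Benjamini-Hochberg adjusted p under 0.05 with limma, against 8.24% of all genes. In positive cells 8 were lower, against 3.61% of all genes, and 2 were higher, against 4.63%. The median log2 difference of the members was -0.13, beside -0.02 over all genes. In the model of the 4 groups the lower genes lay at the anterior and central end. Of the 7 anterior members 5 were lower, of the 12 central members 3 were lower and 2 higher, and of the 14 posterior members 0 passed limma's test, with 2 of them at an unadjusted p under 0.05, against 18.9% of all genes. With the array number as a block, the posterior gene Hoxb9 passed as lower too (limma adjusted p = 0.0220). The block also added Hoxa7 (0.00331) and Hoxb2 (0.0143) as lower and lost Hoxa3 (0.0656). All 7 anterior members had every positive array below every negative array. Arrays were separated in this way, in either direction, for 19 members and for 25.2% of all genes. Without wild-type positive array 3, 6 members passed.

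Upstream sequences are shown for Hoxb1, Hoxa2, Hoxd3 and Hoxc4, 4 of the 5 genes that were lower in wild-type positive cells in every alternative setting, because Cdx and Hox proteins are known to act on Hox genes through short motifs, which were searched here. RefSeq start sites, on the build GRCm38.p6, were found for 19 of the 33 members, with 21 windows of the 250 bases before a start. Each sequence is read 5′ to 3′ on the strand of its gene, and capitals mark a motif found on either strand.
Hoxb1, chr11:96365508-96365757, plus strand: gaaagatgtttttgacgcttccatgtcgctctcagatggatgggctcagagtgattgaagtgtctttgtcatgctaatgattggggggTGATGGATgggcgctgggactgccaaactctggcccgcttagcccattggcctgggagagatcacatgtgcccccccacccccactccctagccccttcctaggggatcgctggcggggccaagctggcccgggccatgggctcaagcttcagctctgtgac
Hoxa2, chr6:52164832-52165081, minus strand: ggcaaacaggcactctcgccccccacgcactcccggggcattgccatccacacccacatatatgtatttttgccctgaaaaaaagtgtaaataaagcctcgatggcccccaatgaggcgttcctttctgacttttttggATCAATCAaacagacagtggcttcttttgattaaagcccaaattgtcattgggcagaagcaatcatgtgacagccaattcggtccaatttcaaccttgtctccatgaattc
Hoxd3, chr2:74711743-74711992, plus strand: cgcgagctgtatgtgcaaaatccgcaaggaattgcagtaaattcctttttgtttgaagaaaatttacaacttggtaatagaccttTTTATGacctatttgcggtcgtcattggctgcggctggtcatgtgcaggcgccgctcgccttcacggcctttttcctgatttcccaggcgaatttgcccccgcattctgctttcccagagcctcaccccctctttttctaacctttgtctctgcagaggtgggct
Hoxc4, chr15:103034145-103034394, plus strand: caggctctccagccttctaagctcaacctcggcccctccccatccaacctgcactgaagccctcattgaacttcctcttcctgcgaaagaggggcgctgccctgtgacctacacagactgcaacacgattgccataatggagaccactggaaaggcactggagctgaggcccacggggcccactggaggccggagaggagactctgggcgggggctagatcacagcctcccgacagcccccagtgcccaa
The capitals in Hoxb1 and Hoxa2 mark TGATNNAT, a Hox-Pbx motif, which 3 of the 21 member windows held and 7.68% of all 32851 windows in the table. The capitals in Hoxd3 mark TTTATG, a Cdx-type motif, which 3 of the 21 windows held and 10.8% of all windows. Hoxc4 held neither in this window. A match is a description of these letters and shows no binding.

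Hoxb1 patterns the hindbrain and is also among the first Hox genes read in the primitive streak. It read 9.97, 9.89 and 8.47 on wild-type positive arrays, against 11.64, 11.68 and 11.50 on wild-type negative arrays. The negative arrays lay close together, the positive ones lay apart from them, and array 3 was the lowest. The difference was -2.16 ± 0.35 (SE), a 4.47-fold lower level, with a limma adjusted p of 0.00260. Hoxd3, which patterns the upper cervical vertebrae, read 6.77, 6.53 and 6.44 in wild-type positive cells, against 7.77, 7.92 and 8.28 in wild-type negative cells. The groups did not overlap, and the difference was -1.41 ± 0.16 with an adjusted p of 0.000189. Hoxa2, which gives the second branchial arch its identity, read 6.88, 6.32 and 6.68 in wild-type positive cells, against 7.60, 7.43 and 7.92 in wild-type negative cells. Again no positive array reached a negative one, and the difference was -1.02 ± 0.18 with an adjusted p of 0.00397.

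Hoxb3, read in the hindbrain and branchial arches, had wild-type positive values of 9.23, 9.82 and 9.60, against negative values of 10.61, 10.52 and 10.45. The groups stood apart, by -0.97 ± 0.17 with a limma adjusted p of 0.00454, and of 0.0642 without both arrays numbered 1. The dimmer Hoxb3 probe set gave -0.48 ± 0.24 (adjusted p = 0.369). Hoxa3, needed for the thymus and parathyroid, read 7.06, 7.07 and 7.10 in wild-type positive cells, against 7.37, 7.47 and 7.53 in wild-type negative cells. The gap was small, at -0.38 ± 0.10 with an adjusted p of 0.0454. This call was lost in 17 of 21 alternative settings, with the array number as a block among them (adjusted p = 0.0656). The dimmer Hoxa3 probe sets ranged from -0.67 to -0.19 and did not pass. The 2 anterior members that did not pass were Hoxb2, which maintains hindbrain segment identity, at -0.53 ± 0.17 with an adjusted p of 0.0863 (0.0143 with the array number as a block), and Hoxd1 at -0.53 ± 0.27 with an adjusted p of 0.347.

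The 3 central members that were lower in wild-type positive cells were Hoxc4, Hoxc5 and Hoxc8. Hoxc4 read 8.98, 8.52 and 7.85 in wild-type positive cells, against 10.64, 10.51 and 10.34 in wild-type negative cells. All 3 positive arrays lay well below the negative ones, and array 3 was again the lowest. The difference was -2.05 ± 0.22, a 4.13-fold lower level, with a limma adjusted p of 0.000133. Hoxc5 read 7.96, 8.21 and 7.93 in wild-type positive cells, against 9.14, 9.28 and 9.32 in wild-type negative cells. No array overlapped, and the difference was -1.21 ± 0.19 with an adjusted p of 0.00219. The 2 dimmer probe sets of Hoxc5 gave -0.17 ± 0.13 and -0.19 ± 0.12 and did not pass, and the mean of all 3 sets gave -0.53. Hoxc8, which patterns the thorax and forelimb motor neurons and was the brightest Hoxc probe set, read 11.74, 11.45 and 11.15 in wild-type positive cells, against 12.48, 12.43 and 12.01 in wild-type negative cells. The groups stood apart by -0.86 ± 0.19, with an adjusted p of 0.0142. Without wild-type positive array 3, or without wild-type negative array 1 or 2, the Hoxc8 call was lost, at an adjusted p of up to 0.0650. Hoxc6, at -0.32 ± 0.13, did not pass (adjusted p = 0.202). Nor did Hoxa7, at -0.77 ± 0.24, whose adjusted p was 0.0853, and 0.00331 with the array number as a block.

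In the opposite direction, Hoxb5 and Hoxd8 were the 2 members higher in wild-type positive cells. Hoxb5, read in lateral mesoderm and in vagal neural crest, had positive values of 8.60, 8.72 and 9.03, against negative values of 7.93, 8.42 and 8.28. The groups did not overlap, and the difference was 0.58 ± 0.16 with a limma adjusted p of 0.0479. Hoxd8, the brightest Hoxd probe set, read 9.99, 9.88 and 9.86 in wild-type positive cells, against 9.71, 9.39 and 9.003 in wild-type negative cells. The groups stood just apart, by 0.54 ± 0.15 with an adjusted p of 0.0464. Both calls lie near the threshold: Hoxb5 lost it in 14 and Hoxd8 in 17 of 22 alternative settings. The second probe set of Hoxd8 gave 0.15 ± 0.22.

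In mutant embryos the sort also gave Hox differences, lower for some anterior and central members and higher for some posterior ones. Of the 33 members 10 differed between positive and negative cells with limma, against 5.36% of all genes. In positive cells 7 were lower, against 2.29% of all genes, and 3 were higher, against 3.07%. Of the 7 anterior members 4 were lower, of the 12 central members 3 were lower, and of the 14 posterior members 3 were higher. The 3 higher genes were Hoxa10, Hoxc10 and Hoxd10, which are all of the measured paralog group 10. With the array number as a block, the Hoxa10 call was lost (limma adjusted p = 0.0534), and Hoxb5, Hoxb6, Hoxa11 and Hoxd13 passed as higher. The higher genes were then neither group 10 nor posterior genes alone. Among the lower genes the block lost Hoxa3 (0.0503), and it added Hoxa7 (0.0319) and the posterior gene Hoxb9 (0.00513). The median log2 difference was -0.17 over the members and -0.03 over all genes. Over the 14 posterior members it was 0.17, with 10 positive and 4 negative differences. The arrays of the groups did not overlap for 9 members higher and 11 lower in mutant positive cells. Over all genes this held for 19.5%, 8.48% higher and 11% lower. Without mutant positive array 3, 6 members passed, without mutant negative array 2, 5, and without both mutant arrays numbered 1, 6.

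**Figure D2:**
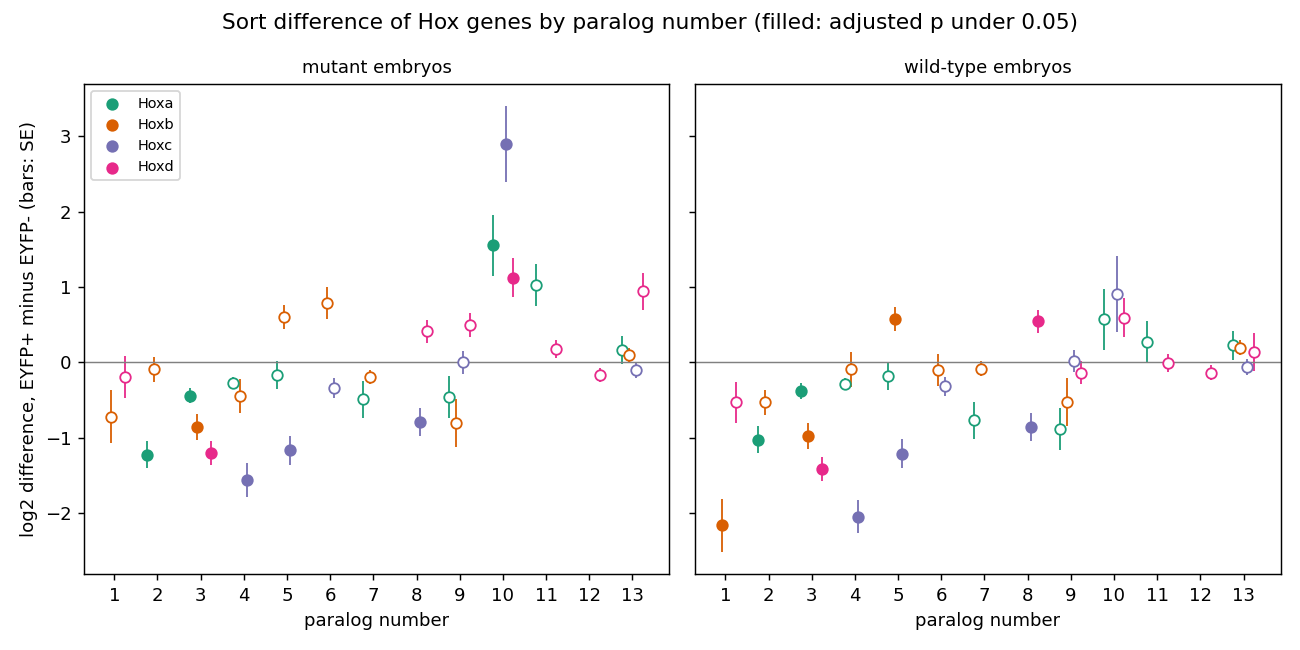
Log2 difference between EYFP positive and EYFP negative cells (vertical axis, bars are SE) by paralog number (horizontal axis), in mutant embryos on the left and wild-type embryos on the right; colour gives the cluster and filled points have an adjusted p under 0.05. The 3 paralog group 10 genes are filled and above 0 in mutants, and Hoxb1 lies at -0.72 in mutants and -2.16 in wild types.

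The anterior and central genes that were lower in mutant positive cells were Hoxa2, Hoxa3, Hoxb3, Hoxd3, Hoxc4, Hoxc5 and Hoxc8. All 7 were also lower in wild-type positive cells, which is 100% of the mutant list and 87.5% of the wild-type list of 8. The remaining gene was Hoxb1. The corresponding overlap over all genes is not given here. The sort comparisons share no array. Hoxc4 read 9.30, 9.20 and 9.32 in mutant positive cells, against 10.73, 10.98 and 10.77 in mutant negative cells. The positive arrays were nearly alike and far below the negative ones, by -1.56 ± 0.22 with a limma adjusted p of 0.00185. Hoxd3 read 7.01, 7.08 and 7.05 in mutant positive cells, against 7.99, 8.54 and 8.20 in mutant negative cells. These groups too stood wholly apart, by -1.20 ± 0.16 with an adjusted p of 0.00135.

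Hoxa2 read 6.84, 6.42 and 6.69 in mutant positive cells, against 7.96, 7.66 and 8.01 in mutant negative cells. The groups did not overlap, and the difference was -1.23 ± 0.18 with a limma adjusted p of 0.00205. Hoxc5 read 8.45, 8.05 and 8.82 in mutant positive cells, against 9.30, 9.88 and 9.63 in mutant negative cells. The highest positive array stayed below the lowest negative one, and the difference was -1.17 ± 0.19 with an adjusted p of 0.00434; the dimmer Hoxc5 sets gave -0.13 ± 0.13 and -0.20 ± 0.12, and the mean of all 3 sets -0.50. Hoxb3 read 10.05, 9.63 and 9.90 in mutant positive cells, against 10.49, 11.01 and 10.63 in mutant negative cells. Its groups stood apart by -0.85 ± 0.17, with an adjusted p of 0.0147, and of up to 0.0637 without mutant positive or negative array 2. The dimmer Hoxb3 set gave -0.24 ± 0.24 (adjusted p = 0.805), and the mean of both sets -0.54. Hoxc8 read 11.28, 11.57 and 11.57 in mutant positive cells, against 12.02, 12.54 and 12.25 in mutant negative cells, without overlap. The Hoxc8 difference was -0.80 ± 0.19 with an adjusted p of 0.0294. That call was lost without any 1 mutant positive array, without mutant negative array 2 or 3, and without both mutant arrays numbered 1. The adjusted p in these settings was up to 0.114. Hoxa3 read 7.13, 7.19 and 6.84 in mutant positive cells, against 7.47, 7.45 and 7.55 in mutant negative cells, without overlap. They differed by -0.44 ± 0.10 with an adjusted p of 0.0300, and of 0.0503 with the array number as a block. The call was lost in 9 of 21 alternative settings. The dimmer Hoxa3 probe sets ranged from -0.74 to -0.09 and did not pass.

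Of the 7 anterior members, Hoxb1, Hoxb2 and Hoxd1 did not pass in the mutant sort. Hoxb2 differed by -0.09 ± 0.17 (limma adjusted p = 0.887) and Hoxd1 by -0.19 ± 0.27 (adjusted p = 0.842), both with overlapping arrays. Hoxb1 read 10.73, 11.30 and 10.89 in mutant positive cells, against 11.22, 11.74 and 12.11 in mutant negative cells. The groups overlapped, and the difference of -0.72 ± 0.35 did not pass limma's test (adjusted p = 0.369), with a 95% interval from -1.49 to 0.05. The difference between the sorts of the 2 genotypes, tested as an interaction, was 1.44 ± 0.50 for Hoxb1 with an adjusted p of 0.214, so it was not shown to differ.

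Markers of several other cell types also differed between positive and negative cells. Of 5 neural ectoderm markers (Sox1, Sox2, Pax6, Crabp2 and Zic1), 4 were lower in mutant positive than mutant negative cells and 5 in wild-type positive than wild-type negative cells. Their mean level was 7.79 to 8.94 in mutant positive and 10.78 to 10.82 in mutant negative arrays, and 7.31 to 8.50 in wild-type positive and 10.48 to 10.88 in wild-type negative arrays. Zic1 went the other way in mutants, at 0.47 ± 0.40 (limma adjusted p = 0.689), with every positive array above every negative one. Of 5 paraxial mesoderm markers 3 were lower in mutant and 4 in wild-type positive cells, with means of 8.12 to 8.40 in mutant positive and 9.47 to 9.80 in mutant negative arrays, and 7.99 to 8.03 in wild-type positive and 9.42 to 9.81 in wild-type negative arrays. Of 3 measured tail bud markers 1 was lower in mutant and 2 in wild-type positive cells, with means of 7.89 to 8.14 in mutant positive and 8.68 to 8.98 in mutant negative arrays, and 7.42 to 7.80 in wild-type positive and 8.35 to 8.67 in wild-type negative arrays. Of 5 yolk sac endoderm markers 0 passed in the mutant sort and 2, Afp and Ttr, were lower in wild-type positive cells. Their means were 5.56 to 9.87 in mutant positive and 8.56 to 8.71 in mutant negative arrays, and 5.45 to 5.84 in wild-type positive and 7.84 to 8.66 in wild-type negative arrays. Of 4 cardiac markers 4 were higher in mutant positive cells and 0 passed in the wild-type sort, with means of 10.76 to 11.19 in mutant positive and 9.17 to 9.65 in mutant negative arrays, and 8.69 to 9.49 in wild-type positive and 9.27 to 9.89 in wild-type negative arrays. Of 5 endothelial markers 2, Kdr and Tek, were higher in mutant positive cells and 5 in wild-type positive cells. Their means were 7.82 to 8.01 in mutant positive and 6.78 to 6.95 in mutant negative arrays. In wild types they were 10.34 to 10.72 in positive and 6.65 to 6.77 in negative arrays. Of 5 primitive erythroid markers 0 passed in the mutant sort and 4 were higher in wild-type positive cells. Their means were 5.89 to 6.07 in mutant positive and 5.97 to 8.33 in mutant negative arrays. In wild types they were 11.59 to 12.16 in positive and 6.12 to 9.04 in negative arrays. The negative arrays were uneven: Hbb-y read 5.01, 11.55 and 4.71 in mutants, and 10.80, 5.59 and 11.94 in wild types. None of these lists contains a Hox gene, and their part in the Hox differences was not tested. In bulk samples, fewer cells of a type and less RNA per cell cannot be told apart.

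Hoxa10, Hoxc10 and Hoxd10 are read in the hindlimb, lumbar and tail regions of later embryos, where the paralogs together set the lumbosacral vertebrae. RefSeq windows were found for Hoxa10 and Hoxd10 but not for Hoxc10. They are shown because the ETS core CCGGAA, the kind of motif that ETS proteins such as Etv2 bind, was searched on both strands.
Hoxa10, chr6:52234940-52235189, minus strand: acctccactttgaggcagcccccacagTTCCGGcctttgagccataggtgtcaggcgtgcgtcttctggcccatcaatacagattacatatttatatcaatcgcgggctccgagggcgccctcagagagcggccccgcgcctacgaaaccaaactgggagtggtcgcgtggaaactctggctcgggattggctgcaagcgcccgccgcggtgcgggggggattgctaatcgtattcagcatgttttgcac
Hoxd10, chr2:74691641-74691890, plus strand: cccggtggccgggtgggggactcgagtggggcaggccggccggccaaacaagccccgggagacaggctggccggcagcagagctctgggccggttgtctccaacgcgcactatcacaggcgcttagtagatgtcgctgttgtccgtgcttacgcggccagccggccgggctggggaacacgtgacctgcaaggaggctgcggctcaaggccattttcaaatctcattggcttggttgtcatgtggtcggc
The capitals in Hoxa10 mark the reverse complement of CCGGAA. It was the 1 of 21 member windows with that motif, which 12% of all windows held. A second Hoxa10 start site in the table had a window without it, as did Hoxd10. No match says only that these letters are not in this window.

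Hoxc10 had the largest sort difference of any member in the mutants. It read 8.94, 9.32 and 11.00 in mutant positive cells, against 6.62, 7.14 and 6.81 in mutant negative cells. Every positive array was above every negative one, and array 3 lay well above the others. The difference was 2.90 ± 0.50, a 7.46-fold higher level, with a limma adjusted p of 0.00571. Without mutant positive array 3 it was 2.28 with an adjusted p of 0.00919. In wild-type embryos Hoxc10 read 8.35, 7.04 and 8.67 in positive cells, against 7.28, 6.77 and 7.28 in negative cells. There the groups overlapped, and the difference was 0.91 ± 0.50 with an adjusted p of 0.387. The interaction was 1.99 ± 0.71 with an adjusted p of 0.239.

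Hoxa10 read 7.49, 7.57 and 9.15 in mutant positive cells, against 6.44, 6.77 and 6.34 in mutant negative cells. The groups did not overlap, and array 3 was the highest of the series for this gene. The difference was 1.56 ± 0.41 with a limma adjusted p of 0.0493, and 1.02 with an adjusted p of 0.0938 without that array. The Hoxa10 call was lost in 16 of 21 alternative settings, with the array number as a block among them (adjusted p = 0.0534). The dimmer Hoxa10 probe set gave 0.39 ± 0.23, which did not pass. In wild-type embryos Hoxa10 read 6.64, 7.61 and 7.79 in positive cells, against 6.99, 6.60 and 6.73 in negative cells, with overlap.

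Hoxd10 read 5.50, 5.15 and 6.04 in mutant positive cells, against 4.53, 4.44 and 4.35 in mutant negative cells. The groups were separated, but Hoxd10 lay below the 25th percentile on 10 of the 12 arrays, mutant positive arrays 1 and 2 among them, so that its fold is uncertain. The difference was 1.12 ± 0.26 with a limma adjusted p of 0.0267, and 0.89 with an adjusted p of 0.0928 without mutant positive array 3. The call was also lost without mutant positive array 1 or any 1 mutant negative array, at an adjusted p of up to 0.0908. Without both mutant arrays numbered 1 it was lost at an adjusted p of 0.114. In wild-type embryos it read 4.68, 4.94 and 5.73 in positive cells, against 4.49, 4.45 and 4.61 in negative cells. These groups did not overlap either, but the difference of 0.59 ± 0.26 did not pass (adjusted p = 0.235). Over the paralog group 10 genes the wild-type differences ranged from 0.57 to 0.91, and none passed.

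**Figure D3:**
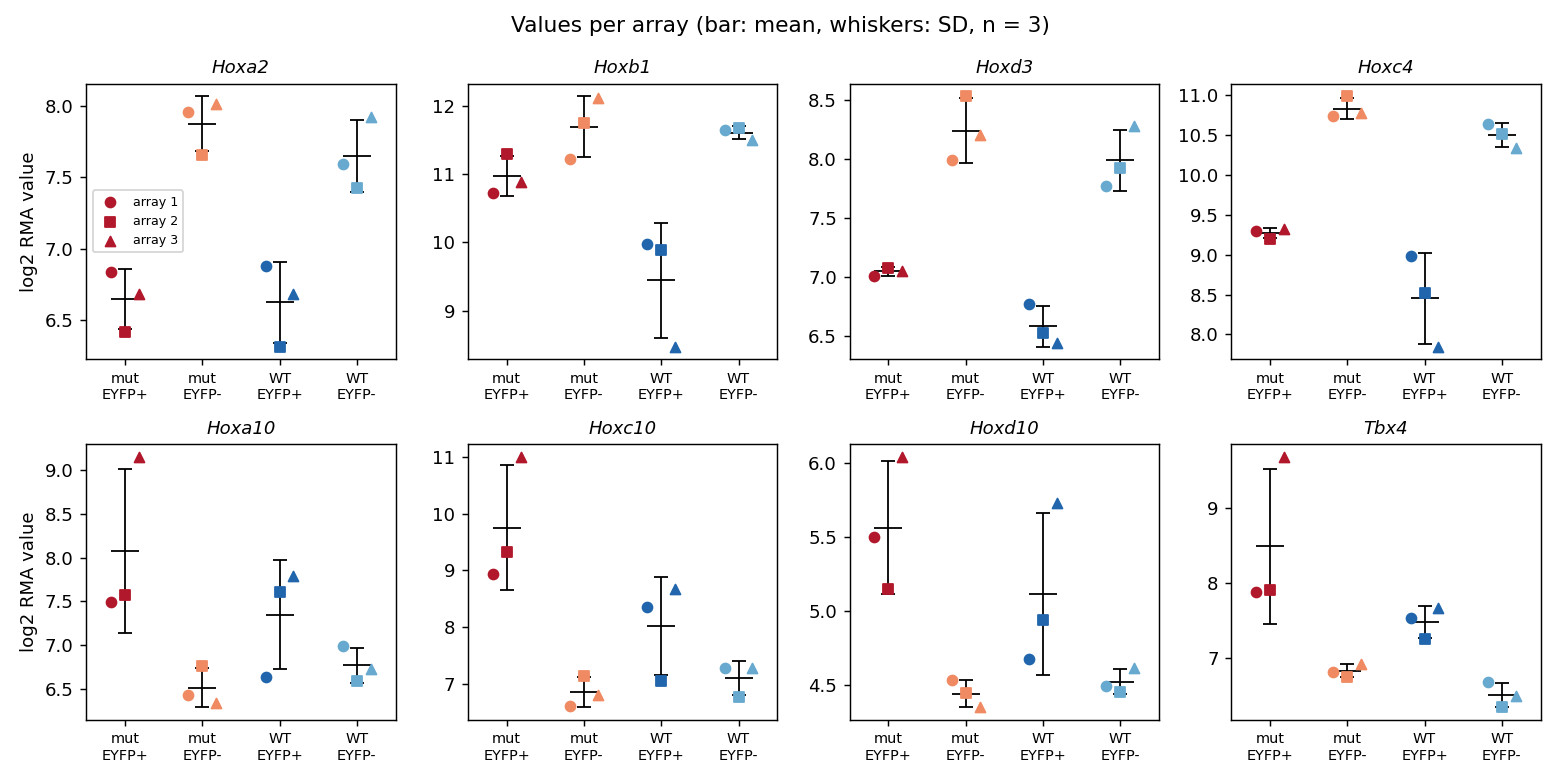
Log2 value of each array for 4 anterior or central genes (top row), and for the paralog group 10 genes and Tbx4 (bottom row), by group; the bar is the mean, whiskers are the SD (n = 3) and the symbol gives the array number. Mutant positive array 3 is the highest of its group in all bottom panels, at 11.00 for Hoxc10 and 9.69 for Tbx4.

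Of the posterior genes beyond group 10 none passed in the model of the 4 groups. Hoxa11, which with its paralogs shapes the forearm and lower leg, read 7.42, 7.55 and 8.48 in mutant positive cells, against 6.93, 6.71 and 6.72 in mutant negative cells. The arrays did not overlap, and the difference was 1.03 ± 0.28 with a limma adjusted p of 0.0605 (0.0451 with the array number as a block). Hoxd13, which patterns the digits and the hindgut end, read 8.30, 7.81 and 8.83 in mutant positive cells, against 7.56, 7.24 and 7.31 in mutant negative cells. Its arrays did not overlap either, and the difference was 0.94 ± 0.25 with an adjusted p of 0.0529 (0.0128 with the block). The second probe set of Hoxd13 gave 0.12 ± 0.15 (adjusted p = 0.861). The differences of Hoxa13, Hoxb13 and Hoxc13 ranged from -0.09 to 0.16. In the wild-type sort Hoxa11 differed by 0.27 ± 0.28 and Hoxd13 by 0.14 ± 0.25, and neither passed.

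None of the 4 paralog group 9 genes passed in either sort in the model of the 4 groups. Hoxa9, the brightest Hoxa probe set and a gene of blood stem and progenitor cells, read 11.77, 11.57 and 12.65 in mutant positive cells, against 12.32, 12.79 and 12.25 in mutant negative cells. The arrays overlapped, and the difference of -0.46 ± 0.27 did not pass (limma adjusted p = 0.501). In wild-type embryos it read 11.60, 11.24 and 11.17 in positive cells, against 12.62, 12.00 and 12.04 in negative cells. There the groups stood apart, yet the difference of -0.88 ± 0.27 had an adjusted p of 0.0800. Hoxb9 differed by -0.80 ± 0.32 in mutants (adjusted p = 0.235, and 0.00513 with the array number as a block) and by -0.53 ± 0.32 in wild types (adjusted p = 0.440, and 0.0220 with the block). Hoxc9 differed by 0.00 ± 0.15 in mutants and 0.02 ± 0.15 in wild types. Hoxd9 read 9.14, 9.30 and 9.79 in mutant positive cells, against 8.81, 9.05 and 8.88 in mutant negative cells. These arrays did not overlap, and the difference was 0.50 ± 0.16 with an adjusted p of 0.108. In wild types Hoxd9 differed by -0.13 ± 0.16 (adjusted p = 0.754).

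Within a positive group, arrays differed at both ends of the clusters at once. The mean over the 14 posterior members was 7.20, 7.24 and 7.73 on mutant positive arrays 1, 2 and 3, and 6.89, 6.86 and 7.08 on wild-type positive arrays 1, 2 and 3. The mean over the 7 anterior members was 8.85, 8.73 and 8.64 on the mutant positive arrays and 8.36, 8.42 and 8.08 on the wild-type positive arrays. Array 3 of either genotype thus had the highest posterior and the lowest anterior mean of its group. Tbx4, a T-box gene of the allantois and hindlimb, was also highest on mutant positive array 3. It read 7.88, 7.91 and 9.69 in mutant positive cells, against 6.81, 6.74 and 6.91 in mutant negative cells. The groups stood apart by 1.67 ± 0.38 with a limma adjusted p of 0.0243, and by 1.07 with an adjusted p of 0.00233 without that array. The Tbx4 call was lost without any 1 mutant negative array, at an adjusted p of up to 0.0790, with only the groups compared in the model (0.131) and without both wild-type arrays numbered 1 (0.0548). Of 5 lateral plate and allantois markers 4 were higher in mutant positive than mutant negative cells, with list means of 9.79 to 10.32 in mutant positive and 8.61 to 8.89 in mutant negative arrays. In wild-type positive arrays that mean was 9.001 to 9.13 and in wild-type negative arrays 8.95 to 8.98. In the wild-type sort 1 of the 5 markers, Prrx1, passed, and it was lower in positive cells (-1.07 ± 0.19, limma adjusted p = 0.00396). Tbx4 differed there by 0.98 ± 0.38 and did not pass (adjusted p = 0.167), though its arrays did not overlap. The part of these markers in the paralog group 10 differences was not tested.

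The order along the clusters can be summarised over the members, which share arrays and neighbours and are no replicates. The Spearman correlation of paralog number with the sort difference was 0.60 in mutants and 0.66 in wild types (n = 33 genes). These values include the dim probe sets, which are unevenly placed. Hoxa13, Hoxb13, Hoxd10, Hoxd11 and Hoxd12 are posterior, Hoxa4 and Hoxb7 are central, and none is anterior. The part of dim probe sets in this order was not tested. By cluster it was 0.68 in mutants and 0.67 in wild types for Hoxa (n = 9), and for Hoxb 0.28 in mutants and 0.57 in wild types (n = 9). For Hoxc it was 0.86 in both genotypes (n = 7), and for Hoxd 0.52 in mutants and 0.43 in wild types (n = 8). The correlation was highest for Hoxc, whose lowest-numbered member is Hoxc4, in both genotypes. The mutant and wild-type sort differences had the same sign in 30 of 33 members, with a Pearson correlation of 0.83 and a Spearman correlation of 0.91 across them. The same values over all genes are not given here, and whether this agreement is particular to Hox genes was not tested.

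The next question is how the positive cells of mutants differed from those of wild types. This comparison shares its mutant arrays with the mutant sort and its wild-type arrays with the wild-type sort. Of 33 members 4 differed with limma, all of them higher in mutant positive cells: Hoxb1, Hoxc4, Hoxb6 and Hoxd9. The share of all genes past the threshold was 7.97% in either direction, 4.23% higher and 3.74% lower, and the members made 12.1%. The median log2 difference was 0.26 over the members and 0.01 over all genes. A positive difference was found in 25 of 33 members and in 52.0% of all genes. Arrays did not overlap for 8 members, all higher, and for 25.7% of all genes, 13.8% higher and 11.8% lower. With 1 array left out, 1 to 3 members passed, which were not always among these 4. There was 1 without mutant positive array 2 or 3 or wild-type positive array 2, and without mutant positive array 2 all 4 calls were lost. There were 2 without wild-type positive array 1 or 3, mutant negative array 3 or wild-type negative array 2. The 4 genes came from 3 clusters and from all 3 positional classes, and the correlation of the difference with paralog number was -0.03.

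**Figure D4:**
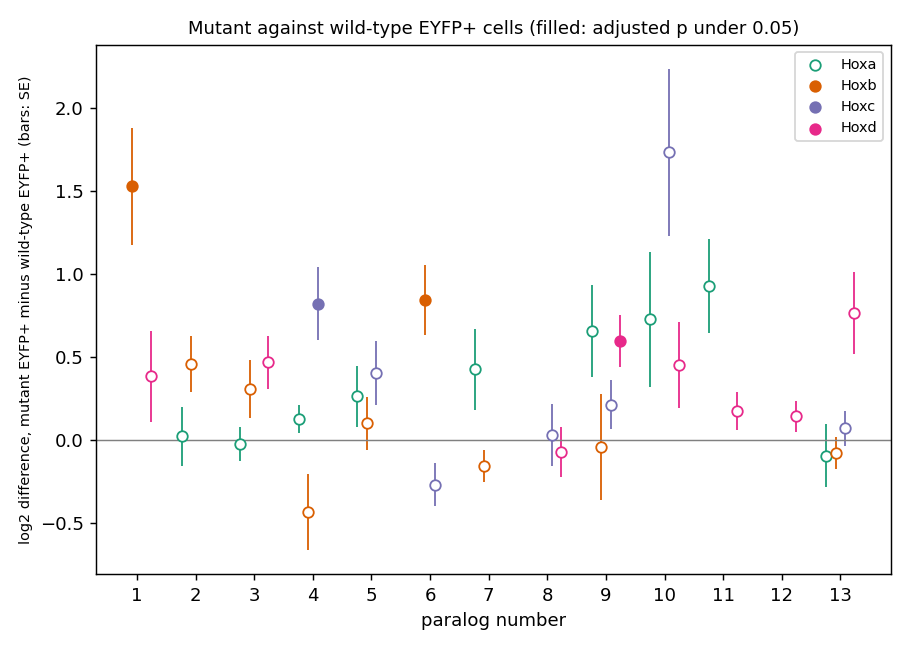
Log2 difference between mutant and wild-type EYFP positive cells (vertical axis, bars are SE) by paralog number (horizontal axis), with the cluster in colour and filled points for an adjusted p under 0.05. The 4 filled points, Hoxb1, Hoxc4, Hoxb6 and Hoxd9, lie above 0, and the open point at 1.73 is Hoxc10.

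Hoxb1 in positive cells read 10.73, 11.30 and 10.89 in mutants, against 9.97, 9.89 and 8.47 in wild types. No wild-type array reached a mutant one, and the difference was 1.53 ± 0.35, a 2.88-fold higher level, with a limma adjusted p of 0.0217. Hoxc4 in positive cells read 9.30, 9.20 and 9.32 in mutants, against 8.98, 8.52 and 7.85 in wild types. The mutant arrays lay just above the highest wild-type one, and the difference was 0.82 ± 0.22 with an adjusted p of 0.0450. Both genes were thus lower in positive than in negative cells of wild types, and less far below them in mutants, but the test of that difference did not pass for either gene.

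Hoxb6, read in lateral plate and posterior mesoderm, had values of 9.77, 10.15 and 9.73 in mutant positive cells, against 8.81, 9.18 and 9.12 in wild-type positive cells. The groups stood clearly apart, by 0.84 ± 0.21 with a limma adjusted p of 0.0331. Hoxd9 read 9.14, 9.30 and 9.79 in mutant positive cells, against 8.87, 8.77 and 8.80 in wild-type positive cells. The groups did not overlap, and the difference was 0.60 ± 0.16 with an adjusted p of 0.0376. Hoxc10 differed by more, 1.73 ± 0.50 or 3.32-fold, but its arrays were more scattered and its adjusted p was 0.0598. Hoxa11 followed at 0.93 ± 0.28 with an adjusted p of 0.0696. No call of this comparison held in all 22 alternative settings. Hoxb1 kept it in 20, Hoxb6 in 14, Hoxd9 in 9 and Hoxc4 in 7. Hoxb1 lost it without mutant positive array 2 (1.36, adjusted p = 0.0728) and with only the groups compared in the model (adjusted p = 0.0900).

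Hoxa5, which acts in the lung and cervical spine, gave different answers by probe set. The brighter set differed by 0.26 ± 0.19 between mutant and wild-type positive cells and did not pass. The dimmer set differed by 0.82 ± 0.19 with a limma adjusted p of 0.0267 over all probe sets. In the wild-type sort the brighter set gave -0.18 ± 0.19 and the dimmer one -1.12 ± 0.19 with an adjusted p of 0.00428. The dimmer set was not used for the gene-level counts.

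Markers of several cell types also differed between the positive cells of mutants and wild types. Of 4 cardiac markers 4 were higher than in wild-type positive cells, with list means of 10.76 to 11.19 in mutant and 8.69 to 9.49 in wild-type positive arrays. Of 5 lateral plate and allantois markers 4 were higher, with list means of 9.79 to 10.32 in mutant and 9.001 to 9.13 in wild-type positive arrays. Of 5 neural markers 2, Crabp2 and Zic1, were higher, with list means of 7.79 to 8.94 in mutant and 7.31 to 8.50 in wild-type positive arrays. Sox1 differed by -1.29 ± 0.60 (limma adjusted p = 0.234) and Sox2 by -1.50 ± 0.57 (adjusted p = 0.143), and neither passed. Of 5 paraxial markers 0 were higher and 1, Dll1, was lower, by -0.63 ± 0.16 (adjusted p = 0.0342), with list means of 8.12 to 8.40 in mutant and 7.99 to 8.03 in wild-type positive arrays. Of 5 endothelial markers 4 were lower, with list means of 7.82 to 8.01 in mutant and 10.34 to 10.72 in wild-type positive arrays, and of 5 primitive erythroid markers 5 were lower, with list means of 5.89 to 6.07 in mutant and 11.59 to 12.16 in wild-type positive arrays. The part of these markers in the Hox differences was not tested.

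The EYFP negative cells of mutants and wild types did not show a Hox difference that passed. Of 33 members 0 differed with limma, as did 0 of all 18193 genes (0%), and 0 members had an unadjusted p under 0.05, against 949 genes (5.22%). The log2 differences of the members ranged from -0.26 to 0.36. All 7 anterior members had a small positive difference, from 0.02 to 0.25, and 57.8% of all genes had a positive difference. Arrays did not overlap for 4 members higher and 1 lower, against 11.2% of all genes in either direction, 7.2% higher and 4.01% lower.

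For the difference between the sorts of the 2 genotypes, 0 of 33 members passed limma's test, against 2.58% of all genes, 0.973% with a positive and 1.61% with a negative interaction. At an unadjusted p under 0.05 there were 5 of 33 members, all with a positive interaction, against 12.3% of all genes in either direction. They were Hoxb6 at 0.89 ± 0.30 (adjusted p = 0.204), Hoxb1 (adjusted p = 0.214), Hoxd9 at 0.63 ± 0.22 (adjusted p = 0.219), Hoxc10 (adjusted p = 0.239) and Hoxd13 at 0.80 ± 0.35 (adjusted p = 0.380). The sort difference of the paralog group 10 genes was therefore not shown to differ between mutants and wild types.

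Regulators known to act on Hox genes were described from lists. Of 13 measured upstream regulators 4 were lower and 0 higher in the mutant sort, and 6 lower and 0 higher in the wild-type sort. Of all genes, 2.29% were lower and 3.07% higher in the mutant sort, and 3.61% lower and 4.63% higher in the wild-type sort. Cdx1 and Cdx4, homeodomain activators of central Hox genes, differed by -1.57 ± 0.31 and -0.87 ± 0.22 in mutants, and by -1.81 ± 0.31 and -1.30 ± 0.22 in wild types, all past limma's test. Cdx2 differed by -0.42 ± 0.22 in mutants and -0.64 ± 0.22 in wild types and did not pass. Egr2, the hindbrain regulator of Hoxa2 and Hoxb2, differed by -2.66 ± 0.45 in mutants and -2.71 ± 0.45 in wild types. Aldh1a2, which makes retinoic acid, differed by -0.89 ± 0.38 in mutants (adjusted p = 0.274) and by -2.40 ± 0.38 in wild types (adjusted p = 0.00205). In positive cells Aldh1a2 read 9.97, 9.26 and 9.69 in mutants, against 7.98, 8.26 and 8.20 in wild types. These arrays did not overlap, and the difference was 1.49 ± 0.38 with an adjusted p of 0.0330. Cyp26a1, which breaks retinoic acid down, was lower in the mutant sort by -0.94 ± 0.20 (adjusted p = 0.0202) and differed by 0.03 ± 0.20 in the wild-type sort.

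Of 8 measured TALE cofactors, which bind DNA together with Hox proteins, 0 passed in the mutant sort and 2 were lower in the wild-type sort. Meis2 differed there by -0.68 ± 0.16 and Pknox2 by -1.31 ± 0.33. Of 13 measured Polycomb and trithorax genes, which keep Hox clusters silent or active, 1 was higher in the mutant sort and 3 were lower in the wild-type sort. Cbx8 was the higher one, by 0.68 ± 0.16, and Cbx2, Cbx7 and Ezh2 were the lower ones. Between positive cells 2 of the 13, Cbx2 and Ezh2, were higher in mutants, against 4.23% of all genes. In either direction 5.36% of all genes passed in the mutant sort and 8.24% in the wild-type sort. With lists this short, 1 call lies near these shares. Of 9 genes beside the clusters 1, Evx1, passed. It lies next to Hoxa13 and was lower in positive cells, by -0.90 ± 0.17 in mutants (limma adjusted p = 0.00949) and by -0.83 ± 0.17 in wild types (adjusted p = 0.0103). Evx2, beside Hoxd13, differed by -0.12 ± 0.10 in mutants and 0.00 ± 0.10 in wild types.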

How the data were processed

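Expression was measured on 12 arrays in 4 groups of 3. The deposited log2 values, which the authors computed by RMA as the submitters' processing notes name it, were used unchanged. The RMA version is not given in the sources used here. Of 45101 probe sets, 64 were controls, 34945 had 1 symbol in the platform annotation, 932 had several and 9160 were not listed there. One probe set per gene, the brightest over all arrays, gave 18193 genes, with no filter on dim ones. Differences were tested two-sided with limma 3.58.1 in R 4.3.3, in 1 model of the 4 groups with 8 residual degrees of freedom, and p-values were adjusted by Benjamini-Hochberg over all genes of a contrast; genes with an adjusted p under 0.05 are called. Errors of differences are moderated standard errors. Full values were given for members past the threshold, up to 8 in each direction, and for the brightest member of each cluster; list genes were named where they passed, at most 4 a list. Other members (such as Hoxa11, Hoxd13, Hoxb2, Hoxd1, Hoxb9 and Hoxc9), Cdx2, Evx2 and Afp were named after their values were seen. The members and lists were chosen with earlier results of these data known. Some list genes are not reported here. Sequences are RefSeq windows on GRCm38.p6. The method was tested on simulated data. Alternatives were 21 planned and 1 added after the data were seen.

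Array numbers pair positive with negative arrays within a genotype, as a hint from the data: the correlations of their deviations from the group means were 0.55, 0.40 and 0.41 in mutants and 0.19, 0.10 and 0.20 in wild types, all above 0.1. Across genotypes they lay between -0.24 and 0.00, and the labels name no shared litter or day.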

Additional observations from a re-analysis of the deposited data

Results flagged for a closer look

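Cbx2, a Polycomb subunit that represses Hox genes, was, of the lists other than cell type markers, the 1 gene whose sort difference itself differed between genotypes. The difference between positive and negative cells was 0.11 ± 0.10 in mutants and -0.90 ± 0.10 in wild types, which gave an interaction of 1.01 ± 0.15 with a limma adjusted p of 0.00302. It read 9.87, 10.13 and 9.94 in mutant positive cells, against 9.92, 9.77 and 9.91 in mutant negative cells, with overlap. In wild types it read 8.98, 9.17 and 9.25 in positive cells, against 10.07, 9.98 and 10.04 in negative cells, without overlap. None of the 33 Hox members passed the same test.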

How the results depend on the processing

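Of the sort calls, Hoxa2, Hoxc4, Hoxc5, Hoxd3 and Hoxc10 in mutants and Hoxa2, Hoxb1, Hoxc4, Hoxc5 and Hoxd3 in wild types held in every alternative run, and no call changed its direction. Leaving out 1 array at a time gave 5 to 12 members in the mutant sort (5 without mutant negative array 2, 6 without mutant positive array 3), 6 to 9 in the wild-type sort (6 without wild-type positive array 3) and 1 to 3 between positive cells of mutants and wild types (1 without mutant positive array 2 or 3 or wild-type positive array 2). That last count of 4 was 2 with all probe sets kept, 2 after quantile normalization, 1 with only the groups compared, 2 without both wild-type arrays numbered 1 and 2 without both mutant arrays numbered 1; the last setting, added after seeing the data, gave 6 in the mutant sort. Without both wild-type arrays numbered 1, 9 members passed in the mutant sort and 7 in the wild-type sort, where Hoxa3 (0.153), Hoxb3 (0.0642) and Hoxb5 (0.138) were lost. The cause was not tested. With the replicate number as a block, 14 members passed in the mutant sort, 12 in the wild-type sort, 6 between positive cells and 0 in the others. The mutant sort then lost Hoxa3 (adjusted p = 0.0503) and Hoxa10 (0.0534) and gained Hoxa7 (0.0319), Hoxa11 (0.0451), Hoxb5 (0.0212), Hoxb6 (0.0319), Hoxb9 (0.00513) and Hoxd13 (0.0128), and the wild-type sort lost Hoxa3 (0.0656) and gained Hoxa7 (0.00331), Hoxb2 (0.0143) and Hoxb9 (0.0220). Between positive cells, where the numbers do not pair the arrays, it gained Hoxa11 (0.0448), Hoxc10 (0.0390) and Hoxd13 (0.0437) and lost Hoxd9 (0.0560). Dim probe sets limit what Hoxa4, Hoxb7, Hoxb13, Hoxd11 and Hoxd12 can show.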

Other observations

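Antisense genes of the clusters were measured with probe sets of their own, and strand was not checked. Hoxb5os, antisense to Hoxb5, was lower in positive cells in both genotypes, by -1.76 ± 0.33 in mutants (limma adjusted p = 0.00869) and by -1.54 ± 0.33 in wild types (adjusted p = 0.0126). Hoxb5 itself ran the other way, with differences of 0.61 ± 0.16 in mutants (adjusted p = 0.0505, and 0.0212 with the array number as a block) and 0.58 ± 0.16 in wild types (adjusted p = 0.0479). Hoxa11os differed by 0.52 ± 0.15 in mutants (adjusted p = 0.0740) and 0.39 ± 0.15 in wild types (adjusted p = 0.163), and Hoxd3os1 by -0.32 ± 0.41 in mutants and -0.50 ± 0.41 in wild types.

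Of 3 probe sets shared by 2 Hox genes, the set of Hoxb8 and Hoxb7 was lower in mutant positive than mutant negative cells, by -0.83 ± 0.15 with an adjusted p of 0.0163 over all probe sets. In wild types it differed by -0.56 ± 0.15 with an adjusted p of 0.0723. The probe set with the single symbol Hoxb7 was dim on all 12 arrays. The 2 sets of Hoxd4 and Hoxd3 ranged from -0.59 to -0.25 in mutants and from -0.60 to -0.30 in wild types and did not pass.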
